A study of Mus musculus with 180 samples.

Results

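The genes described here are 34 components, regulators and receptors of the complement system, out of 13820 genes measured in 15 mouse tissues. They were chosen by name from a list of 35 symbols: recognition molecules (8), serine proteases (9), the thioester proteins C3 and C4 with C5 (3), terminal pathway proteins (5 of 6), soluble and membrane regulators (6) and receptors (3). C7 was not analysed here.

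Complement is a cascade of plasma proteins, most of them made by the liver, that tags microbes and damaged cells. The classical pathway starts when C1q binds a target and the proteases C1r and C1s cut C4 and C2. The lectin pathway starts from mannose-binding lectins, ficolins or collectin-11 with the MASP proteases, and the alternative pathway amplifies C3 cleavage through factor B and factor D. All routes meet at C3 and C5, from which the terminal proteins C6 to C9 build a membrane pore, while regulators such as C1 inhibitor, C4b-binding protein, factor I, CD55 and CD59 hold the cascade back and C3aR and C5aR1 sense its small fragments.

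Each of 12 female mice, 6 weeks of age, gave 1 RNA library per tissue. The first group, 4 mice of strain B6.129S-Tnftm1Gkl/J, carried a germline TNF knockout allele and received lipopolysaccharide (LPS), a bacterial cell wall component, at 5 mg/kg. The second, 4 C57BL/6J mice, had the same dose, and the third, also 4 C57BL/6J mice, had PBS. Tissues were collected at 12 hours, after the vessels had been flushed with PBS and EDTA. They are called TNF-deficient LPS mice, LPS mice and PBS mice below. The design held no TNF-deficient mice without LPS, so strain, allele and response cannot be told apart in that comparison, and the LPS mice serve both comparisons with opposite sign. The labels give no batch, and p-values measure the spread between these mice. Tnf tags were counted in all 60 libraries of each group, 3397 in TNF-deficient LPS mice, 1235 in LPS mice and 493 in PBS mice. The labels do not state which stretch of Tnf the allele lacks, and a 3′ tag outside that stretch checks nothing, so the groups are named by their labels.

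Values are the authors' scaled 3′ tag signals. Libraries held 311128 to 2573806 counts in total. A single count was worth 0.322 to 3.6 units of signal, depending on the library, so low signals rest on a handful of reads. Changes are differences of mean log2(signal + 1), with their standard error (SE), tested with limma in 1 fit per tissue. "Rose" and "fell" stand for a Benjamini-Hochberg adjusted p below 0.05 over all genes of the tissue. A change on this scale understates that of a gene with low signal. Of 45 tissue markers, 41 were highest in the tissue they stand for. In whole tissue, fewer cells of a type and less RNA per cell cannot be told apart.

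For some genes picked from the contrast described below, the bases upstream of the transcription start are shown, from RefSeq on build GRCm38.p6. C3 rose in 13 tissues, liver included, while Mbl2, C8g and C9 fell in liver. Of the 34 genes, 26 had an entry in the promoter table. Cfb, C2 and Serping1, which also rose in many tissues, had none. Bases run 5′ to 3′ on the strand of the gene and stop before the first transcribed base. Capitals mark matches, on either strand, to GGG and CC with any 5 bases between them (the loose form of an NF-kB site), TTCNNNGAA (a STAT site) or TTGCNNAA (the core of a C/EBP site).
C3, chr17:57228137-57228386, minus strand: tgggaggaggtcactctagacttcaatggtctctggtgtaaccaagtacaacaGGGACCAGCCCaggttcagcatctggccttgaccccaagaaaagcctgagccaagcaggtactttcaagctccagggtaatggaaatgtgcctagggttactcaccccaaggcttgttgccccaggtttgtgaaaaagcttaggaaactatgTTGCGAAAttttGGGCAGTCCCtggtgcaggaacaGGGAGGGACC
Mbl2, chr19:30232678-30232927, plus strand: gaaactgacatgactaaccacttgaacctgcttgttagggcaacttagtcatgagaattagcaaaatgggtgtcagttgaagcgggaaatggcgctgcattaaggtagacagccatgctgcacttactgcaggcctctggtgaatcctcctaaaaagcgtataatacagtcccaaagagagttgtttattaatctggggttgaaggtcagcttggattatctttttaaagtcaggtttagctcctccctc
C8g, chr2:25501720-25501969, minus strand: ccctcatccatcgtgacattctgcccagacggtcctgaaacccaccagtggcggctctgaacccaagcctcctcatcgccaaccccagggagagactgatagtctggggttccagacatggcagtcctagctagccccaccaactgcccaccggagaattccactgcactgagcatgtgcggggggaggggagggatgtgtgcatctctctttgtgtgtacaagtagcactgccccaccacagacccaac
C9, chr15:6445096-6445326, plus strand: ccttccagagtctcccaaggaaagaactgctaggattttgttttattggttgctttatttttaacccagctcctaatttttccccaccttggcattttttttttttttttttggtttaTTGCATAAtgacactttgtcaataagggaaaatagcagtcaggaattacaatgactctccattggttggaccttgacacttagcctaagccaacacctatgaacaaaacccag
The C3 window held 4 matches to the NF-kB form, of which the first 2 overlap, and 1 to TTGCNNAA. The C9 window held 1 match to TTGCNNAA, and the windows of Mbl2 and C8g held none of the 3. Over the 250 upstream bases of all 32851 promoters in the table, 45.8% held the NF-kB form, 7.02% TTCNNNGAA and 9.56% TTGCNNAA. Among the 26 genes the counts were 8, 3 and 5. The 8 with the NF-kB form were C3, C3ar1, Cfd, Cd55, Cd59a, C1qb, C1qc and Cfp. After LPS, C3 and C3ar1 were called only higher and Cfd only lower. The others were called higher in some tissues and lower in others. A match describes letters in a window and not a bound site.

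In PBS mice, 21 of the 34 genes had their highest mean signal in liver. For 20 of these, every PBS liver lay above every PBS library of the next tissue, and for 11 the liver mean was at least 10 times that of the next tissue. Levels set across tissues rest on the authors' scaling. Mbl2, a lectin that binds microbial sugars, had a signal of 973 ± 63.2 in liver (mean ± SD, n = 4), and the median of the 15 tissue means was 2.26. Cfi, the protease that inactivates C3b and C4b, was at 801 ± 48.1 in liver and 7.55 ± 1.05 in kidney, the next tissue. C9, the pore-forming subunit, was at 256 ± 26.4 in liver and had a median of 0.657 over the 15 tissue means. Hc, which encodes C5, was high in liver at 529 ± 32.1 and also in lung at 338 ± 13.9. Among the other proteases, liver means were 346 ± 33.9 for Cfb, 241 ± 23.8 for C1s1, 161 ± 27.1 for Masp1, 116 ± 20.7 for C2, 114 ± 10.7 for C1ra, 107 ± 22.3 for C1rl and 95.4 ± 19.2 for Masp2. Those of C3 and C4b were 3121 ± 454 and 395 ± 42.8, those of the regulators Vtn, Serping1 and C4bp 2556 ± 195, 1364 ± 54.4 and 825 ± 46.2. The lectins Mbl1 and Colec11 were at 309 ± 19.1 and 75.7 ± 19.9, and the C8 chains C8a, C8b and C8g at 202 ± 19.3, 174 ± 24.5 and 605 ± 17.8. C2 was the exception, its livers overlapping white adipose tissue at 90.6 ± 10.6. Outside liver, markers of hepatocytes stood at 0.246% to 2.54% of their signal in PBS livers, and their part in low signals of liver genes elsewhere was not tested.

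The other 13 genes were highest elsewhere. The C1q chains C1qa, C1qb and C1qc, along with Fcna (ficolin A, a sugar-binding lectin made by macrophages) and Cfp (properdin, which stabilises the alternative pathway convertase), were highest in spleen, where C1qa had a signal of 172 ± 6.99 and Fcna of 120.1 ± 16.8. Cfd, which encodes the adipose product factor D, was highest in white adipose tissue at 9324 ± 2477 and next in brown adipose tissue at 3624 ± 1019. Fcnb, the ficolin of neutrophils and their precursors, was highest in bone marrow at 131 ± 16.9, and so was the C5a receptor gene C5ar1 at 97.6 ± 7.71. Cd93, a surface protein of endothelium and myeloid cells first described as a C1q receptor, was highest in lung at 319 ± 10.2, as was C6 at 23.5 ± 6.08, although the C6 values overlapped those of spleen. The regulator Cd55, which speeds the decay of convertases, was highest in inguinal lymph node at 213 ± 37.4. Cd59a, which blocks the terminal pore, was highest in brown adipose tissue at 186 ± 29.4 and overlapped heart at 183 ± 21.1. C3ar1, the C3a receptor gene, was highest in skin at 22.3 ± 10.1 and overlapped the next tissue.

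The first comparison sets LPS mice against PBS mice within each tissue. Serping1, C3, Cfb, C1ra and C2 rose in the most tissues, while in liver 18 of the 34 genes fell. Outside liver the serine proteases were higher in 45 and lower in 4 of 114 tests, and the recognition molecules higher in 7 and lower in 12 of 111. Of 510 gene and tissue pairs, 478 passed the filter on low values, and 29 of the 34 genes were tested in all 15 tissues. The exceptions were Colec11 (14 tissues), C6 (13), C8b (7), C9 (6) and Masp2 (3). Of the 478 tests, 101 were higher and 55 lower, where 9.47% of tests over all genes were higher and 10.4% lower. Outside liver 97 of 444 tests were higher and 37 lower, against 9.31% and 10.2% of tests over all genes. In liver 4 of 34 genes were higher and 18 lower, against 11.6% and 13.5% of all genes there. The median change of the 34 genes was -0.68 in liver and 0.15 over the tests in the other 14 tissues, where the median over all genes of a tissue lay between -0.06 and 0.06. The LPS and PBS mice did not overlap in 138 of the 156 calls, and in 81.8% of the calls over all genes.

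**Figure D1:**
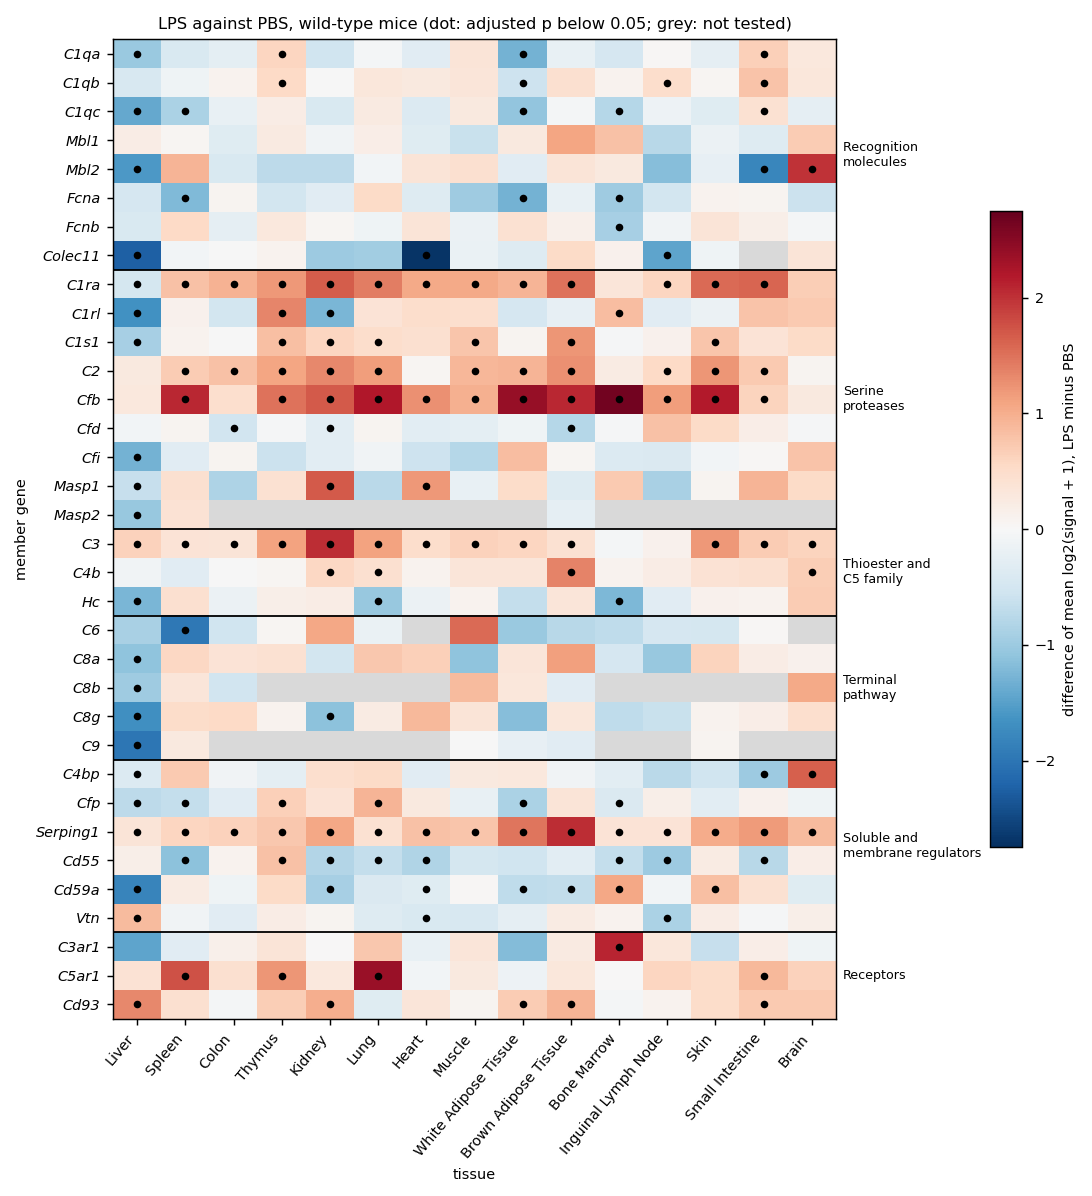
Difference of mean log2(signal + 1) between LPS and PBS mice for the 34 complement genes (rows, grouped by role) in 15 tissues (columns). Red stands for higher and blue for lower in LPS mice, dots mark an adjusted p below 0.05 and grey cells were not tested. Rows of Cfb, C1ra, C2, C3 and Serping1 are red across most tissues, and the liver column holds 18 of the 55 lower calls.

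Among all genes, 9.47% of these tests were higher and 10.4% lower. By role, the serine proteases were higher in 45 and lower in 10 of 123 tests, and C3, C4b and Hc higher in 17 and lower in 3 of 45. Of the proteases, C1ra and Cfb were higher in 12 tissues each, C2 in 11, C1s1 in 6 and C1rl and Masp1 in 2 each. Cfd, Cfi and Masp2 were higher in none. Recognition molecules were higher in 7 and lower in 16 of 119. The terminal genes were higher in none and lower in 6 of 56. The regulators were higher in 22 and lower in 20 of 90, and the receptors higher in 10 and lower in none of 45. Of the 34 genes, 33 were called in at least 1 tissue, as were 83.5% of all genes, and 13 in both directions, as were 20.9% of all genes. Mbl1, a second mannose-binding lectin gene, was called in none, with changes of -0.77 in inguinal lymph node to 1.08 in brown adipose tissue. By tissue, thymus had 12 of 31 genes higher (9.7% of all its genes were) and none lower. Small intestine had 10 of 30 higher and 3 lower, where 9.92% and 13.4% of all genes were. Kidney had 9 of 31 higher and 5 lower, where 16.2% and 21.9% of all genes were, and 3 lower without mouse 2 or 5. Brain had 5 of 31 higher and none lower, where 2.32% of all its genes were higher, but only 2 after the brains of mice 6 and 8 were left out.

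The 5 genes that rose in the most tissues were Serping1 (15 tissues), C3 (13), C1ra and Cfb (12 each) and C2 (11). Cfb encodes factor B, the catalytic subunit of the alternative pathway convertase. In bone marrow its signal was 69.5, 57.6, 83.6 and 66.2 in LPS mice, against 8.53, 15.3, 8.54 and 9.35 in PBS mice. All 4 LPS mice were several times above all PBS mice, a change of 2.64 ± 0.16 (SE), adjusted p = 4.94e-12. In lung it was 89.5, 70.3, 107 and 81.9 in LPS mice, against 25.9, 17.1, 14.8 and 15.7 in PBS mice, again without overlap (change 2.20 ± 0.16 (SE), adjusted p = 4.43e-11). In liver, where Cfb is highest in PBS mice, LPS mice had 372, 425, 414 and 469 and PBS mice 386, 303, 351 and 342. These groups overlapped, and the change of 0.28 ± 0.11 had an adjusted p of 0.0532. It was called under median-of-ratios scaling (adjusted p = 0.0491) and without mouse 1 (0.0312) or 5 (0.0308). The other large rises of Cfb were in white adipose tissue (2.39), skin (2.17), spleen (2.08) and brown adipose tissue (2.07). In all 12 tissues with a call the LPS and PBS mice did not overlap, and each call held with any 1 mouse left out.

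C2, the catalytic subunit of the classical and lectin pathway convertase, lies next to Cfb on chromosome 17 (C2 at chr17:34862604-34898265 and Cfb at chr17:34856374-34862518, both on the minus strand of mm10). Its signal in kidney was 123, 115, 119 and 104 in LPS mice, against 46.1, 49.9, 42.6 and 44.2 in PBS mice. The groups were far apart, with a change of 1.32 ± 0.12 (SE), adjusted p = 1.28e-09. The 11 rises ranged from 0.55 to 1.32, all without overlap, and the call in colon was lost without mouse 2 or 7 (adjusted p up to 0.075). In liver C2 was at 131, 138, 123 and 167 in LPS mice and 118, 142, 113 and 91.7 in PBS mice, which overlapped (change 0.27 ± 0.14, adjusted p = 0.189).

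C3, the central protein of all 3 pathways, showed its largest rise in kidney, with 439.6, 471, 403 and 369 in LPS mice, against 90.7, 119, 94.7 and 106 in PBS mice. Every LPS kidney lay above every PBS kidney, a change of 2.03 ± 0.10 (SE), adjusted p = 2.11e-14. In liver LPS mice had 4657, 5378, 4649 and 4612 and PBS mice 2861, 2615, 3487 and 3521, also without overlap. That change was 0.64 ± 0.10 (SE), adjusted p = 2.03e-05. The 13 rises ranged from 0.34 to 2.03. Some of them did not hold when a mouse was left out. The call in colon was lost without mouse 2, 3, 5 or 8 (adjusted p up to 0.136). In brown adipose tissue it was lost without mouse 1, 5 or 6 (adjusted p up to 0.0744) and in brain without mouse 8 (adjusted p = 0.0598). C3 passed the test in neither bone marrow (-0.04) nor inguinal lymph node (0.11).

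Serping1 encodes C1 inhibitor, which blocks C1r, C1s and the MASPs. In brown adipose tissue it was at 543, 414, 525 and 508 in LPS mice, against 105, 114, 131 and 132 in PBS mice. The groups were far apart with little spread, a change of 2.04 ± 0.11 (SE), adjusted p = 2.78e-11. In liver, where it is highest, LPS mice had 1682, 1782, 1719 and 1822 and PBS mice 1312, 1344, 1360.0 and 1439.6. The groups did not overlap there or in any other tissue. The liver change of 0.36 ± 0.09 (SE), adjusted p = 0.00197, was the smallest of the 15. The call in inguinal lymph node was lost without mouse 2 or 5 (adjusted p up to 0.0624).

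C1ra encodes the protease C1r of the classical pathway. In kidney it was at 43.4, 42.3, 52.8 and 44.3 in LPS mice, against 10.5, 10.96, 19.1 and 15.7 in PBS mice, without overlap. The change was 1.67 ± 0.17 (SE), adjusted p = 1.48e-08. In liver the order was turned round, with 80.4, 91.5, 92.5 and 62.0 in LPS mice, against 118, 102, 126 and 108 in PBS mice. C1ra was thus lower in every LPS liver (-0.48 ± 0.14 (SE), adjusted p = 0.0112), a call lost without mouse 8 (adjusted p = 0.0698). Its 12 rises ranged from 0.59 to 1.67, of which 9 were without overlap, and that in spleen was lost without mouse 2 or 6 (adjusted p up to 0.0855). Reads of C1ra and the near-identical C1rb could be split between the genes, so the level of each is uncertain. C1rb rose in 6 of 14 tissues, by 1.88 in kidney, and fell in none.

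**Figure D2:**
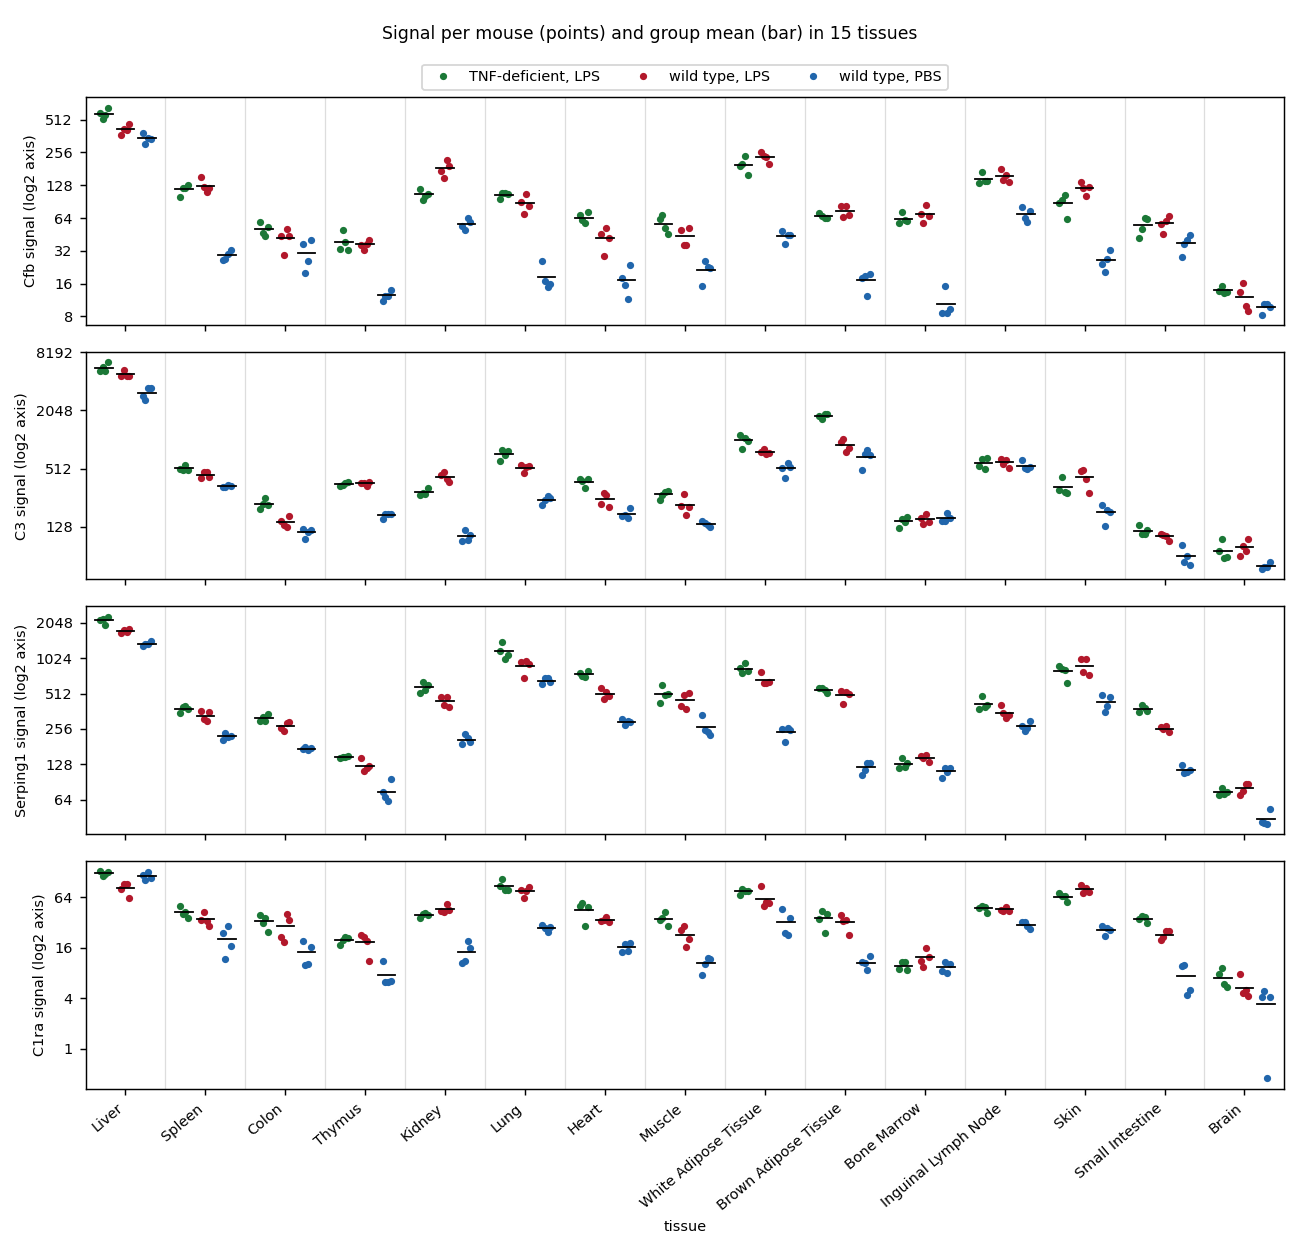
Signal of Cfb, C3, Serping1 and C1ra in each mouse (points) with the group mean (bar) in 15 tissues, on a log2 axis. In each tissue the TNF-deficient LPS mice stand left, the LPS mice in the middle and the PBS mice right. Red points (LPS mice) lie above blue points (PBS mice) for Serping1 in every tissue, and C1ra in liver shows the opposite order.

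In liver, 18 of the 34 genes fell after LPS. They were 4 recognition molecules (C1qa, C1qc, Mbl2, Colec11), 6 proteases (C1ra, C1rl, C1s1, Cfi, Masp1, Masp2), Hc, 4 terminal genes (C8a, C8b, C8g, C9) and 3 regulators (C4bp, Cfp, Cd59a). The 4 that rose were C3, Serping1, Vtn and Cd93. Among the 22 calls, LPS and PBS mice overlapped only for Masp1. Of 15 hepatocyte markers, 11 fell and 4 rose in the same livers, and their summed signal was 174759 to 214089 in LPS mice and 256845 to 286589 in PBS mice. The part of that fall in the fall of the complement genes was not tested.

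C9 was at 42.2, 63.7, 76.3 and 80.4 in LPS livers, against 234, 267, 234 and 288 in PBS livers. Every LPS value was under 100 and every PBS value above 200, a change of -1.98 ± 0.18 (SE), adjusted p = 3.17e-10. C8g, which encodes the gamma chain of C8, was at 149.8, 182, 209 and 215 in LPS mice, against 612, 588, 593 and 626 in PBS mice. The groups were likewise far apart (-1.69 ± 0.12 (SE), adjusted p = 1.53e-12). The alpha and beta chain genes, C8a and C8b, which lie next to each other on chromosome 4, fell by smaller amounts (-1.11 ± 0.14 and -0.98 ± 0.13). The fifth terminal gene, C6, had a change of -0.89 ± 0.41 with an adjusted p of 0.122.

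Among the lectins, Mbl2 was at 223, 299, 424 and 394 in LPS livers, against 988, 1049, 897 and 956 in PBS livers. The fall was clear in every mouse (-1.58 ± 0.14 (SE), adjusted p = 3.17e-10). Mbl1 did not follow it: LPS mice had 354, 431, 323 and 329.6 and PBS mice 316, 316, 281 and 323, which overlapped (change 0.21 ± 0.11, adjusted p = 0.196). Colec11, the gene of collectin-11, was at 12.3, 7.96, 25.01 and 18.5 in LPS livers, against 89.98, 95.4, 55.7 and 61.7 in PBS livers, without overlap. Its change was -2.26 ± 0.29 (SE), adjusted p = 4.61e-07.

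Hc was at 218, 224, 223 and 211 in LPS livers, against 484, 544, 529.5 and 557 in PBS livers. The LPS values lay within a narrow band far under the PBS values (-1.27 ± 0.10 (SE), adjusted p = 1.79e-11). Its relative C3 rose in the same livers, and C4b, the gene of C4, passed no test (LPS 368 ± 46.0 and PBS 395 ± 42.8, change -0.10 ± 0.12). Among proteases, C1rl, a C1r-like protease gene, had the largest fall in liver, with 46.3, 62.4, 17.5 and 21.1 in LPS mice, against 80.0, 97.1, 128 and 122 in PBS mice. LPS mice 7 and 8 were lowest, and no LPS mouse reached the PBS range (-1.67 ± 0.26 (SE), adjusted p = 6.94e-06). Cfi fell with little spread (-1.30 ± 0.10 (SE), adjusted p = 7.01e-12). Masp2 (-1.05 ± 0.17), C1s1 (-0.91 ± 0.13) and, with overlap, Masp1 (-0.64 ± 0.15) fell as well.

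Among regulators, Cd59a was at 38.1, 67.7, 36.3 and 29.0 in LPS livers, against 126, 144, 145 and 166 in PBS livers. Mouse 6 was the highest LPS mouse and still lay under all PBS mice (-1.80 ± 0.19 (SE), adjusted p = 1.44e-08). Reads of Cd59a could be shared with its copy Cd59b, so its level is uncertain. C4bp, which encodes C4b-binding protein, fell less (-0.39 ± 0.10 (SE), adjusted p = 0.00495). Vtn, which encodes vitronectin, a plasma protein that binds the forming terminal complex, went the other way, with 4304, 4609, 4807 and 4924 in LPS livers, against 2457, 2358, 2603 and 2807 in PBS livers. It was higher in every LPS liver (0.87 ± 0.09 (SE), adjusted p = 1.3e-08). Cd93 was at 62.7, 58.4, 58.8 and 38.2 in LPS livers, against 24.0, 19.1, 16.7 and 24.7 in PBS livers, again without overlap (1.32 ± 0.21 (SE), adjusted p = 1.1e-05).

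**Figure D3:**
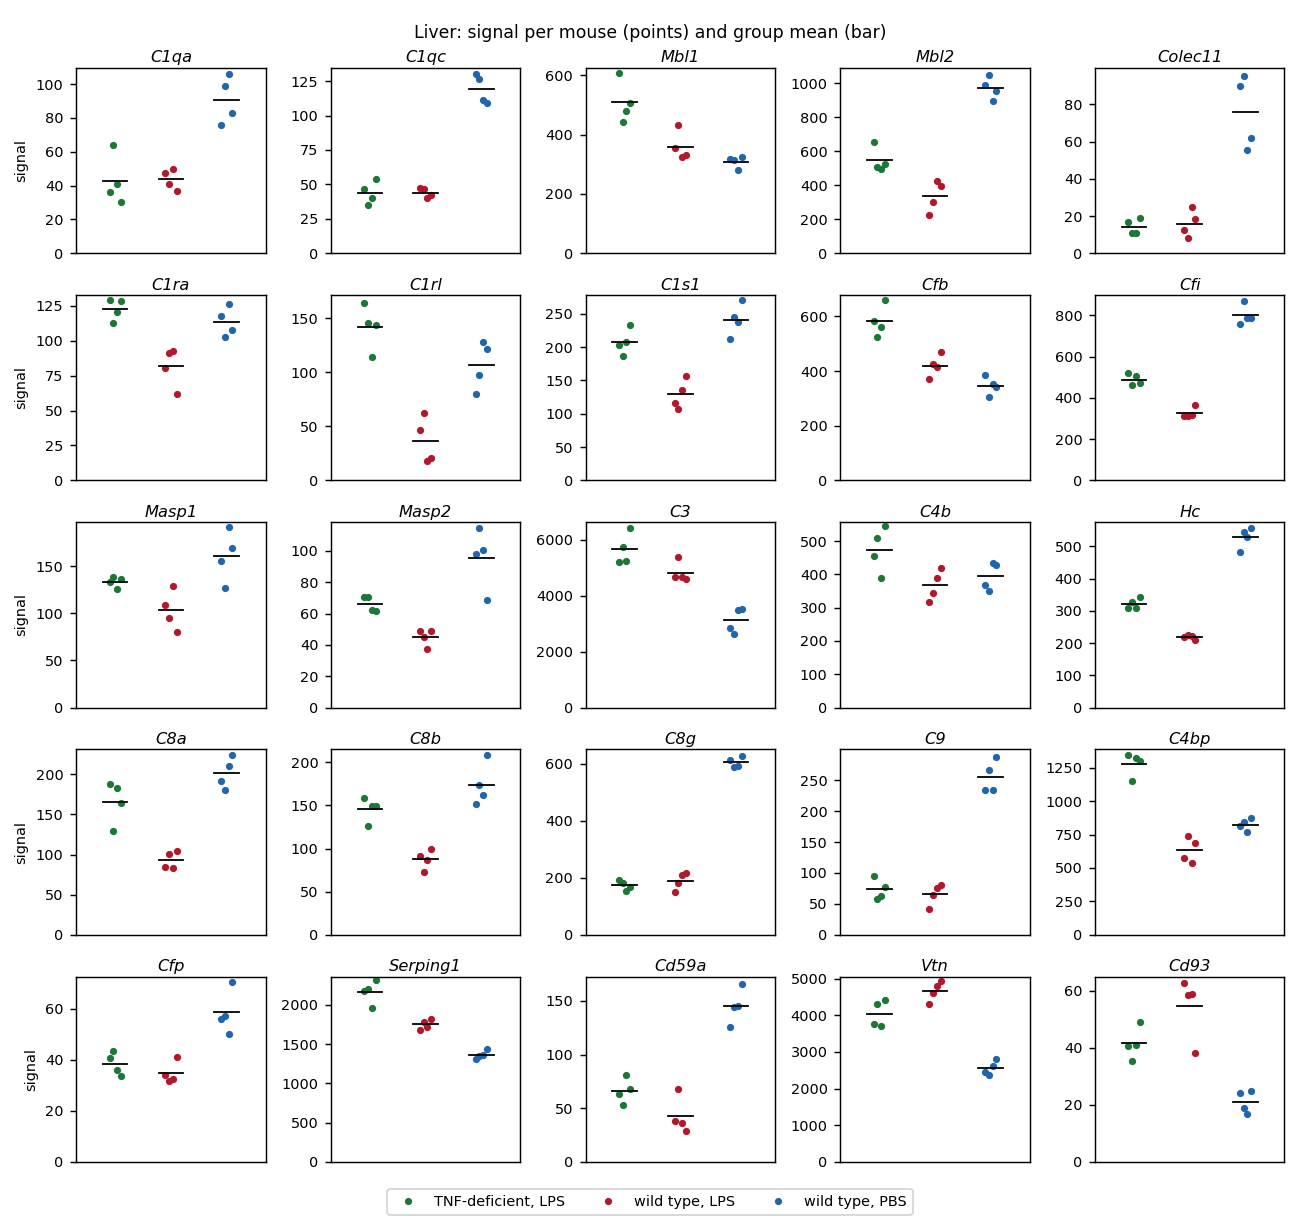
Liver signal in each mouse (points) and group mean (bar) for the 25 complement genes called in liver in at least 1 comparison, on linear axes from 0. Each panel shows the TNF-deficient LPS mice left, the LPS mice in the middle and the PBS mice right. Most panels show LPS mice under PBS mice, with C3, Serping1, Vtn and Cd93 above them.

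The 3 chains of C1q, encoded side by side on chromosome 4 and made by macrophages, fell in liver and white adipose tissue and rose in small intestine, with C1qb in liver the exception. In liver C1qc was at 47.7, 46.4, 40.02 and 42.2 in LPS mice, against 130.0, 127, 111 and 109 in PBS mice (-1.42 ± 0.16 (SE), adjusted p = 4.93e-08), and C1qa at 47.7, 41.1, 50.02 and 36.9, against 76.0, 98.8, 106 and 82.9 (-1.03 ± 0.20 (SE), adjusted p = 0.000162). Neither pair of groups overlapped. C1qb had 47.7, 70.3, 45.0 and 71.2 in LPS livers and 76.0, 83.2, 72.5 and 81.2 in PBS livers, which did not overlap either, but its change of -0.44 ± 0.19 had an adjusted p of 0.0951. Whether the chains differed from one another within a tissue was not tested.

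In white adipose tissue C1qa fell to 48.9, 35.6, 24.8 and 47.0 in LPS mice, against 88.5, 81.8, 91.3 and 120.1 in PBS mice (-1.30 ± 0.20 (SE), adjusted p = 4.4e-05). C1qc fell there too (-1.09 ± 0.16), while the call for C1qb (-0.56 ± 0.18) was lost without mouse 1, 2, 3, 4, 6, 7 or 8 (adjusted p up to 0.137). In spleen and bone marrow C1qc fell (-0.88 ± 0.13 and -0.79 ± 0.15) and C1qa and C1qb passed no test. In small intestine all 3 chains rose. C1qb was at 51.2, 56.4, 54.4 and 56.4 in LPS mice, against 27.5, 31.0, 34.4 and 32.2 in PBS mice, without overlap (0.79 ± 0.13 (SE), adjusted p = 7.87e-05). C1qa rose by 0.65 and C1qc by 0.41, the last call lost without mouse 5 (adjusted p = 0.0772). C1qa and C1qb also rose in thymus, by 0.59 and 0.55, and C1qb in inguinal lymph node, a call lost without mouse 1, 2, 3, 5 or 6 (adjusted p up to 0.109).

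Markers of resident macrophages were counted in the tissues where a C1q chain was called. Of 14 such markers tested in liver, 7 fell and 2 rose. Of the 13 tested in each other tissue named here, 8 fell and 3 rose in spleen, 6 fell and 2 rose in inguinal lymph node, where C1qb rose, 4 fell and 2 rose in bone marrow, 3 fell and 1 rose in white adipose tissue, 5 rose and none fell in thymus, and 3 rose and 1 fell in small intestine. Their summed signal in liver was 201.3 to 255 in LPS mice and 349 to 503 in PBS mice. In inguinal lymph node it was 385 to 623 in LPS mice and 597 to 708 in PBS mice, which overlapped. So did spleen, at 396 to 835 in LPS mice and 739 to 968 in PBS mice, and bone marrow, at 295 to 579.8 in LPS mice and 395 to 439 in PBS mice. In thymus it was 220 to 314 in LPS mice and 164 to 182 in PBS mice. In white adipose tissue it was 161 to 221 in LPS mice and 254 to 318 in PBS mice. In small intestine the groups overlapped, at 158 to 227 in LPS mice and 151 to 170.0 in PBS mice. Their part in the C1q changes was not tested. Over the 45 group means, the genes whose pattern was most like that of C1qa were C1qc and C1qb (Spearman's rho 0.963 and 0.960), followed by the macrophage receptor Timd4 (0.813), Nop53 (0.794) and Rps15 (0.793) among 12441 genes. These correlations describe means that share mice and tissues.

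**Figure D4:**
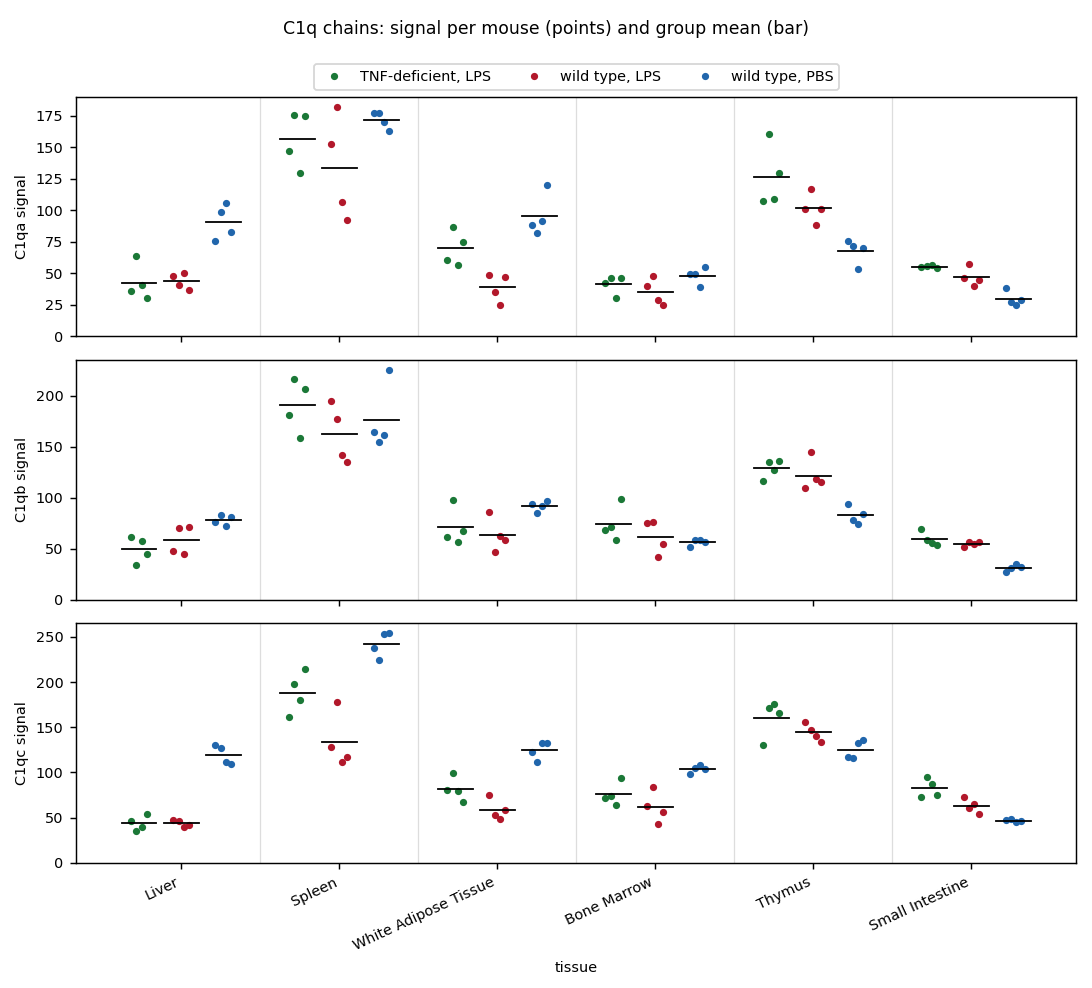
Signal of C1qa, C1qb and C1qc in each mouse (points) with the group mean (bar) in 6 tissues, on linear axes from 0. In each tissue the TNF-deficient LPS mice stand left, the LPS mice in the middle and the PBS mice right. LPS mice lie under PBS mice for C1qa and C1qc in liver and white adipose tissue and above them for all chains in small intestine.

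The ficolins fell where they are most abundant. Fcna was at 56.9, 40.3, 53.4 and 55.9 in LPS spleens, against 99.1, 139, 126 and 117 in PBS spleens, without overlap (-1.20 ± 0.15 (SE), adjusted p = 3.64e-07). It fell also in bone marrow (-0.98 ± 0.21) and white adipose tissue (-1.29 ± 0.33). Fcnb was at 54.3, 64.8, 78.9 and 80.0 in LPS bone marrow, against 135, 113, 153 and 125 in PBS bone marrow, also without overlap (-0.92 ± 0.13 (SE), adjusted p = 5.13e-06). Of 17 neutrophil and monocyte markers, 10 fell and 3 rose in bone marrow, with a summed signal of 20247 to 24049.8 in LPS mice and 24577 to 26528 in PBS mice. Their part in the Fcnb fall was not tested.

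Colec11 had its largest change in heart, the tissue with the second highest level in PBS mice. It was at 2.92, 6.84, 2.26 and 5.23 in LPS hearts, against 30.5, 32.2, 30.6 and 31.5 in PBS hearts. The PBS values lay close together and every LPS value was far under them (-2.69 ± 0.26 (SE), adjusted p = 3.94e-09). The counts behind these values summed to 17 over the 4 LPS mice and 149 over the 4 PBS mice. Of 12 fibroblast markers, 9 fell and 1 rose in the same hearts, although their summed signal overlapped, at 2194 to 2564 in LPS mice and 2344 to 2540.0 in PBS mice. Their part was not tested. Colec11 fell also in inguinal lymph node (-1.46 ± 0.35), with overlap, on 12 and 49 counts. Mbl2 rose in brain, with 5.12, 6.37, 4.97 and 11.5 in LPS mice, against 2.27, 0.967, 0.449 and 0.467 in PBS mice (1.98 ± 0.37 (SE), adjusted p = 0.00131), on 47 and 11 counts. It fell in small intestine (-1.79 ± 0.44) on 8 counts in LPS mice and 34 in PBS mice.

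Among the remaining proteases, C1s1, the gene of C1s, rose in 6 tissues and fell in liver. In brown adipose tissue it was at 112, 53.3, 63.0 and 78.7 in LPS mice, against 21.6, 25.8, 33.1 and 50.5 in PBS mice. The groups did not overlap, although both were spread widely (1.22 ± 0.24 (SE), adjusted p = 0.000667). Reads could be shared with its copy C1s2, so its level is uncertain. C1rl fell in kidney as in liver (-1.25 ± 0.21) and rose in bone marrow (0.85 ± 0.22), and its rise in thymus, on 15 counts in LPS mice and 5 in PBS mice, was lost without mouse 2, 3, 5 or 7 (adjusted p up to 0.151). Masp1, a protease of the lectin pathway, fell in liver and rose in heart (1.20 ± 0.22) and kidney. In kidney it was at 11.3, 12.8, 8.80 and 7.39 in LPS mice, against 2.09, 2.74, 1.91 and 2.85 in PBS mice, without overlap (1.69 ± 0.29 (SE), adjusted p = 3.2e-05). Cfd fell in brown adipose tissue, with 2327, 1529, 2417 and 2023 in LPS mice, against 2458, 3428, 3676 and 4934 in PBS mice (-0.78 ± 0.18 (SE), adjusted p = 0.00259), and 5 of 10 adipocyte markers fell and 2 rose there. Their part was not tested. The falls of Cfd in colon and kidney were lost without mouse 1, 2 or 6 (adjusted p up to 0.151) and without mouse 2, 3, 5 or 8 (adjusted p up to 0.115).

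C4b rose in 4 tissues, the most in brown adipose tissue, where it was at 98.5, 97.7, 86.8 and 85.1 in LPS mice, against 57.7, 31.7, 19.6 and 40.7 in PBS mice. These groups did not overlap (1.37 ± 0.22 (SE), adjusted p = 7.04e-05). C4b also rose in kidney (0.57 ± 0.16), lung (0.44 ± 0.12) and brain (0.69 ± 0.17), the last call lost without mouse 1, 2 or 8 (adjusted p up to 0.085). Reads could be shared with its copy C4a, so its level is uncertain. Hc fell in lung, its second main source, to 171, 161, 179 and 145 in LPS mice, against 339.9, 324, 357 and 333 in PBS mice. The LPS lungs lay well under the PBS lungs (-1.04 ± 0.10 (SE), adjusted p = 9.71e-09). Hc fell at lower levels in bone marrow too (-1.23 ± 0.32). Outside liver, of 51 tests of terminal genes none was higher and 2 were lower. Over all genes, 9.31% of tests there were higher and 10.2% lower. The terminal genes had low signals, with medians over the 15 tissue means in PBS mice from 0.623 (C8b) to 2.69 (C6). These tests could therefore miss a change. C6 fell in spleen, where it was at 4.44, 3.67, 4.71 and 5.41 in LPS mice, against 16.3, 18.4, 26.8 and 22.1 in PBS mice. All LPS spleens were under all PBS spleens (-1.96 ± 0.36 (SE), adjusted p = 0.000123). C8g fell in kidney, a call lost without mouse 2 or 7 (adjusted p up to 0.0733).

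The membrane regulators split. Cd55 fell in 7 tissues and rose in thymus. In spleen it was at 31.1, 73.3, 37.7 and 37.9 in LPS mice, against 88.7, 85.4, 114 and 90.4 in PBS mice. Mouse 6 stood well above the other 3 LPS mice but still under the PBS mice (-1.13 ± 0.19 (SE), adjusted p = 4.55e-05). In inguinal lymph node, its main source, Cd55 fell by a similar amount (-1.01 ± 0.16 (SE), adjusted p = 9.18e-05). Its smaller falls in kidney, heart and small intestine were lost without mouse 3, 4 or 5 (adjusted p up to 0.0656), without mouse 4 or 5 (adjusted p up to 0.0928) and without mouse 2 (adjusted p = 0.064), and its rise in thymus without mouse 2 or 6 (adjusted p up to 0.11). In liver Cd55 passed no test (0.16 ± 0.19, adjusted p = 0.628). Cd59a fell in 5 tissues and rose in bone marrow and skin. In bone marrow it was at 101, 60.5, 116 and 96.2 in LPS mice, against 38.7, 44.8, 40.03 and 48.2 in PBS mice. Every LPS value was above every PBS value (1.07 ± 0.15 (SE), adjusted p = 4.27e-06). In kidney it fell (-0.91 ± 0.13), and its fall in heart was lost without mouse 1, 3, 5 or 7 (adjusted p up to 0.0982).

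Cfp fell in liver, spleen, white adipose tissue and bone marrow and rose in thymus and lung. In lung it was at 18.3, 36.6, 31.1 and 43.9 in LPS mice, against 15.0, 17.7, 15.4 and 14.5 in PBS mice, without overlap (0.94 ± 0.22 (SE), adjusted p = 0.00148). In the same lungs 15 of 17 neutrophil and monocyte markers rose and 1 fell, with sums of 5624 to 6195 in LPS mice and 693 to 782 in PBS mice, and their part was not tested. In white adipose tissue it was at 35.1, 25.9, 25.8 and 22.4 in LPS mice, against 47.5, 48.7, 42.2 and 64.2 in PBS mice (-0.87 ± 0.19 (SE), adjusted p = 0.00266). In bone marrow it was no longer called without mouse 8 (adjusted p = 0.0507). C4bp rose in brain, with 7.68, 20.3, 6.39 and 22.9 in LPS mice, against 2.27, 4.51, 2.69 and 4.20 in PBS mice (1.64 ± 0.33 (SE), adjusted p = 0.00313). LPS mice 6 and 8 were far above the rest, and without these 2 brains the change was 0.89 with an adjusted p of 0.229. The brains of these 2 mice also had hepatocyte markers at 1.32% and 1.57% of the PBS liver signal, against 0.739% to 0.972% in the other brains of LPS and PBS mice, and 12 of 15 such markers rose in brain. Their part was not tested. Without these brains the adjusted p was 0.231 for C3, 0.171 for C4b and 0.0686 for Mbl2, while Serping1 remained called (0.00294).

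In small intestine C4bp fell too, on 44 counts in LPS mice and 76 in PBS mice (adjusted p = 0.0084). Of 15 hepatocyte markers there, 4 fell and 1 rose, with a median change of -0.045. Summed, these markers stood at 0.88% to 1.68% of the PBS liver signal in LPS mice and 2.33% to 2.54% in PBS mice. Their part was not tested. Vtn fell in inguinal lymph node, with 39.5, 32.9, 47.8 and 33.9 in LPS mice, against 162, 52.2, 47.1 and 60.6 in PBS mice (-0.87 ± 0.26 (SE), adjusted p = 0.0218). PBS mouse 1 stood far above its group, and hepatocyte markers in that library were at 2.53%, against 0.246% to 0.301% in the other nodes of LPS and PBS mice, and their part was not tested. Without it the change was -0.47 with an adjusted p of 0.0402, and it was no longer called without mouse 6 or 8 (adjusted p up to 0.062). Vtn fell also in heart, though not without mouse 1, 3, 4, 5, 8, 9, 11 or 12 (adjusted p up to 0.186).

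The receptor genes rose or passed no test. C5ar1 rose most in lung, with 173, 114, 175 and 162 in LPS mice, against 20.9, 35.4, 34.1 and 26.6 in PBS mice. The groups were several times apart (2.38 ± 0.18 (SE), adjusted p = 4.92e-11). It rose also in spleen (1.74 ± 0.21), thymus (1.21 ± 0.26) and small intestine (0.89 ± 0.22). The neutrophil and monocyte markers that rose in lung are given above for Cfp. In spleen 10 of them rose and 1 fell, with sums of 2044 to 3389 in LPS mice and 1221 to 1388 in PBS mice. In thymus 4 rose and none fell, with sums of 1006 to 1082 in LPS mice and 716 to 885.5 in PBS mice. In small intestine 1 rose and none fell. The sums overlapped there, at 3192 to 3792 in LPS mice and 2777 to 3434 in PBS mice. Their part in the C5ar1 rises was not tested. C3ar1 rose in bone marrow, with 16.1, 14.1, 15.1 and 12.4 in LPS mice, against 1.97, 2.73, 2.13 and 3.74 in PBS mice, without overlap (2.10 ± 0.22 (SE), adjusted p = 6.68e-08). In liver neither C5ar1 (0.40 ± 0.24, adjusted p = 0.257) nor C3ar1 (-1.46 ± 0.66, adjusted p = 0.114) passed the test. Cd93 rose in liver, kidney (0.99 ± 0.16), brown adipose tissue (0.94 ± 0.22), white adipose tissue (0.71 ± 0.18) and small intestine (0.71 ± 0.18), and in lung, its main source, it had a change of -0.33 ± 0.14 with an adjusted p of 0.0847.

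Whether the change differed among the 15 tissues was tested for each gene by limma's moderated F. It did for 27 of the 34 genes, where 65.3% of all genes passed. The lowest adjusted p values were those of Cfb (1.16e-29), Serping1 (1.83e-25) and C3 (6.45e-23). The 7 that did not pass were Mbl1, Fcna, Fcnb, Cfd, Cfi, Masp2 and C8b, with adjusted p values of 0.145 to 0.807. Of the 18 genes that fell in liver, 10 rose in at least 1 other tissue: C1qa, C1qc, Mbl2, C1ra, C1rl, C1s1, Masp1, C4bp, Cfp and Cd59a. Over all genes, 29.7% of those that fell in liver rose in at least 1 other tissue. Some of the 10 rested on calls that leaving out libraries removed, by limma within the tissue. The only rises of Mbl2 and C4bp were in brain, with an adjusted p of 0.0686 and 0.229 without the brains of mice 6 and 8. The only rise of C1qc, in small intestine, was lost without mouse 5 (adjusted p = 0.0772). The fall of C1ra in liver was lost without mouse 8 (adjusted p = 0.0698). The change of each of the 10 genes differed among tissues by the moderated F. They were picked for opposite calls in the same libraries, so this adds no support.

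The second comparison sets TNF-deficient against wild-type mice within each tissue, both given LPS. Without TNF-deficient mice given PBS, it compares levels after LPS and not the responses to it. Calls were fewer than for LPS against PBS mice, and liver held the most of any tissue, all of them higher in the TNF-deficient LPS mice. Over 15 tissues, 35 of 478 tests were higher and 7 lower, where 3.24% and 2.32% of tests over all genes were. In liver 15 of 34 genes were higher and none lower, against 5.96% and 3.43% of all genes there. Outside liver 20 of 444 tests were higher and 7 lower, against 3.04% and 2.24% over all genes, a share near that of genes at large. Without mouse 12 the lower calls numbered 4 in place of 7. The groups did not overlap in 37 of the 42 calls, and in 80.9% of the calls over all genes. Of the 34 genes, 25 were called in at least 1 tissue, as were 45.4% of all genes. C1qb, C2, C8g, C9, Cd55, Vtn and the 3 receptor genes were called in no tissue.

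**Figure D5:**
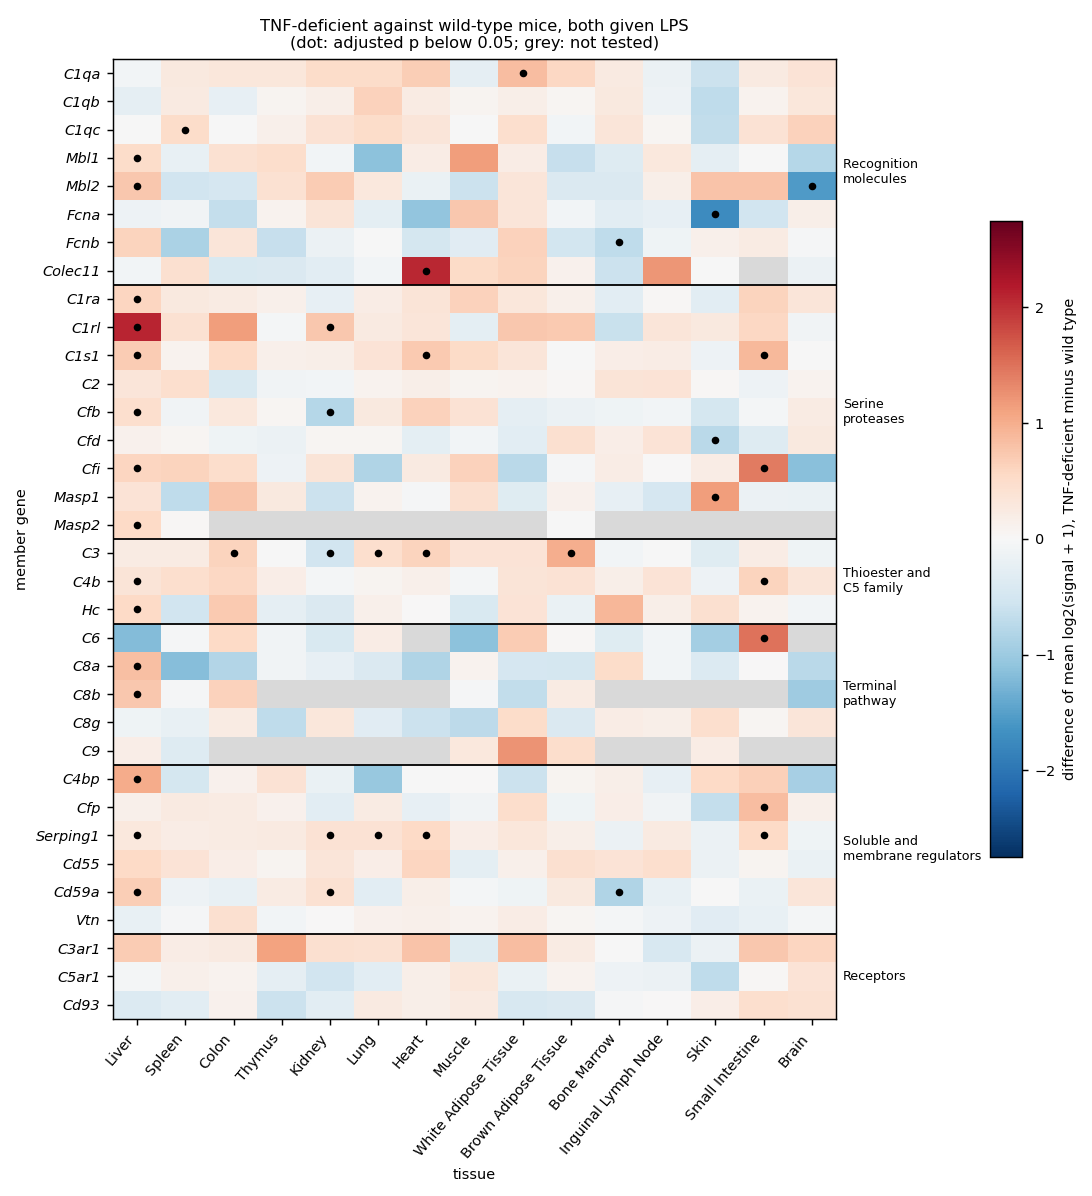
Difference of mean log2(signal + 1) between TNF-deficient LPS mice and LPS mice for the 34 complement genes (rows, grouped by role) in 15 tissues (columns), with the same colour range as the LPS map. Red stands for higher in TNF-deficient LPS mice, dots mark an adjusted p below 0.05 and grey cells were not tested. The liver column holds 15 of the 35 higher calls.

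C1rl had the largest difference in liver. It was at 164, 145, 114 and 144 in TNF-deficient LPS livers and 46.3, 62.4, 17.5 and 21.1 in LPS livers, with 80.0, 97.1, 128 and 122 in PBS livers. The TNF-deficient LPS mice lay far above the LPS mice and overlapped the PBS range (2.09 ± 0.26 (SE), adjusted p = 1.2e-06). C4bp was at 1348, 1148, 1325 and 1302 in TNF-deficient LPS livers and 577, 739, 536 and 688 in LPS livers, with 814, 841, 767 and 877 in PBS livers. All 4 TNF-deficient LPS mice were above both other groups (1.02 ± 0.10 (SE), adjusted p = 4.04e-08 against LPS mice).

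For other liver genes the mean of the TNF-deficient LPS mice lay between those of the LPS and PBS mice. C8a was at 188, 129, 183 and 164 in TNF-deficient LPS livers, against 84.4, 101, 83.8 and 104 in LPS livers (0.82 ± 0.14 (SE), adjusted p = 9.49e-05), and C8b at 158, 126, 149.7 and 149.7, against 91.3, 73.0, 86.3 and 98.9 (0.74 ± 0.13 (SE), adjusted p = 0.000336). Mbl2 was at 656, 508, 497 and 523 in TNF-deficient LPS livers, against 223, 299, 424 and 394 in LPS livers. All were higher than the LPS values and, as the PBS values above show, lower than those of PBS mice (0.74 ± 0.14 (SE), adjusted p = 0.00051). Hc (0.55 ± 0.10 (SE), adjusted p = 0.000229) and Cfi (0.58 ± 0.10 (SE), adjusted p = 8.82e-05) had the same order of groups. C1s1 (0.69 ± 0.13) was higher as well, and so was C1ra (0.60 ± 0.14), with a mean above that of PBS mice. Higher too was Masp2 (0.55 ± 0.17), a call lost without mouse 7, 9, 10, 11 or 12 (adjusted p up to 0.12). These comparisons share the LPS mice, so such an order is not separate evidence.

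C8g and C9, which fell after LPS, passed no test here. C8g was at 192, 181, 155 and 166 in TNF-deficient LPS livers and 149.8, 182, 209 and 215 in LPS livers, with a change of -0.11 ± 0.12 (adjusted p = 0.689). C9 was at 95.8, 58.4, 62.3 and 77.1 in TNF-deficient LPS livers and 42.2, 63.7, 76.3 and 80.4 in LPS livers (0.17 ± 0.18, adjusted p = 0.682). The groups overlapped for both, as they did for Colec11 (-0.07 ± 0.29), C1qa (-0.08 ± 0.20) and C1qc (-0.02 ± 0.16). A missed threshold does not show that the groups are alike.

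Further liver genes were higher too. Mbl1 was at 608, 441, 479.7 and 506 in TNF-deficient LPS livers, against 354, 431, 323 and 329.6 in LPS livers, without overlap (0.50 ± 0.11 (SE), adjusted p = 0.00343). Cfb was at 583, 524, 560.5 and 660.1 in TNF-deficient LPS livers, against 372, 425, 414 and 469 in LPS livers, also without overlap (0.47 ± 0.11 (SE), adjusted p = 0.00324). The calls of Serping1 (0.30 ± 0.09), Cd59a (0.68 ± 0.19) and C4b (0.36 ± 0.12) were near the threshold, with adjusted p of 0.0239, 0.0234 and 0.0493. That of Serping1 was lost without mouse 5, 7, 9, 10 or 12 (adjusted p up to 0.0997), that of Cd59a without mouse 5, 7, 8, 11 or 12 (adjusted p up to 0.124) and that of C4b without mouse 1, 3, 4, 5, 6, 7, 9, 10 or 12 (adjusted p up to 0.205). Of 15 hepatocyte markers in the same livers, 5 were higher and 2 lower, with a summed signal of 175231 to 212721 in TNF-deficient LPS mice and 174759 to 214089 in LPS mice.

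Small intestine followed with 6 of 30 genes higher and none lower, where 4.47% of all its genes were higher. C6 was at 9.17, 16.2, 12.8 and 12.4 in TNF-deficient LPS mice, against 4.21, 2.88, 6.80 and 2.30 in LPS mice. The groups did not overlap, on 107 and 26 counts in all (1.49 ± 0.31 (SE), adjusted p = 0.00396). Cfi was at 13.2, 24.3, 24.4 and 15.8 in TNF-deficient LPS mice, against 8.43, 5.18, 4.76 and 7.48 in LPS mice (1.44 ± 0.27 (SE), adjusted p = 0.0016). C1s1 (0.90 ± 0.15) and Serping1 (0.55 ± 0.09) were higher in every TNF-deficient LPS mouse than in any LPS mouse. The call of C4b (0.62 ± 0.18) was lost without mouse 5, 6, 7, 8, 9, 10, 11 or 12 (adjusted p up to 0.143), and that of Cfp (0.85 ± 0.26) without mouse 2, 3, 4, 5, 6, 7, 9, 10 or 11 (adjusted p up to 0.127). Of 12 fibroblast markers 6 were higher and none lower there, with sums of 1069 to 1309 in TNF-deficient LPS mice and 817 to 893 in LPS mice, and their part was not tested.

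In heart 4 of 30 genes were higher, where 3.32% of all its genes were. Colec11 was at 20.8, 16.7, 19.3 and 23.8 in TNF-deficient LPS hearts and 2.92, 6.84, 2.26 and 5.23 in LPS hearts, with 30.5, 32.2, 30.6 and 31.5 in PBS hearts. The 3 groups were fully apart (2.07 ± 0.26 (SE), adjusted p = 5.12e-06 against LPS mice). C3 (0.61 ± 0.11) and Serping1 (0.55 ± 0.08) were higher too, and so was C1s1 (0.73 ± 0.17), a call lost without mouse 12 (adjusted p = 0.0636). Of 12 fibroblast markers 3 were higher and none lower in the same hearts, with sums of 2553 to 2949.6 in TNF-deficient LPS mice and 2194 to 2564 in LPS mice, and their part was not tested.

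C3 was called in 5 tissues, higher in 4 and lower in kidney. In brown adipose tissue it was at 1792, 1678, 1857 and 1887 in TNF-deficient LPS mice, against 974, 1042, 769 and 843 in LPS mice. The lowest TNF-deficient LPS value was well above the highest LPS value (1.00 ± 0.13 (SE), adjusted p = 9.26e-05). In that tissue 5 of 10 adipocyte markers were higher and 1 lower, and their part was not tested. C3 was higher also in colon (0.62 ± 0.11), heart and lung (0.46 ± 0.10). In kidney it was lower, at 273, 290.3, 277 and 323 in TNF-deficient LPS mice, against 439.6, 471, 403 and 369 in LPS mice, without overlap (-0.53 ± 0.10 (SE), adjusted p = 0.000383). Cfb was lower in kidney as well, at 119, 93.4, 103 and 107 in TNF-deficient LPS mice, against 172, 149.9, 220.0 and 192 in LPS mice (-0.78 ± 0.12 (SE), adjusted p = 3.61e-05). In kidney 3 of 31 genes were higher and 2 lower, where 13.2% and 6.82% of all its genes were. Without mouse 9 only 1 was higher. The 3 were Serping1 (0.40 ± 0.09), C1rl (0.73 ± 0.21), lost without mouse 9 (adjusted p = 0.0637), and Cd59a (0.41 ± 0.13), lost without mouse 7, 8, 9, 10 or 12 (adjusted p up to 0.118).

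In bone marrow Fcnb was at 42.2, 44.5, 35.1 and 46.6 in TNF-deficient LPS mice, against 54.3, 64.8, 78.9 and 80.0 in LPS mice, and Cd59a at 53.0, 57.0, 46.3 and 47.9, against 101, 60.5, 116 and 96.2. Both were lower in every TNF-deficient LPS mouse (-0.70 ± 0.13 (SE), adjusted p = 0.00154 for Fcnb and -0.83 ± 0.15 (SE), adjusted p = 0.00119 for Cd59a). The neutrophil and monocyte markers summed to 15467 to 23089 in TNF-deficient LPS marrow and 20247 to 24049.8 in LPS marrow, and their part was not tested. In skin Fcna was at 3.21, 3.28, 2.34 and 1.24 in TNF-deficient LPS mice, against 12.1, 6.54, 7.44 and 18.4 in LPS mice. It was lower without overlap (-1.72 ± 0.41 (SE), adjusted p = 0.025), on 17 and 62 counts, a call lost without mouse 5, 8 or 12 (adjusted p up to 0.0959). Cfd was lower in skin (-0.75 ± 0.20), lost without mouse 3, 4, 5, 6, 7, 8, 10, 11 or 12 (adjusted p up to 0.155), where 3 of 10 adipocyte markers were lower and none higher. Their part was not tested. Masp1 was higher there (1.14 ± 0.25), lost without mouse 7 (adjusted p = 0.0553). The remaining calls were C1qa in white adipose tissue (0.85 ± 0.20), lost without mouse 7, 10 or 12 (adjusted p up to 0.1), C1qc in spleen (0.51 ± 0.13), lost without mouse 7, 8, 10 or 12 (adjusted p up to 0.0825), Serping1 in lung (0.41 ± 0.11), lost without mouse 8, 9 or 10 (adjusted p up to 0.105), and Mbl2 in brain (-1.57 ± 0.37), on 11 counts in TNF-deficient LPS mice and 47 in LPS mice, lost without mouse 2, 6, 7, 8, 11 or 12 (adjusted p up to 0.167).

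The difference between TNF-deficient LPS and LPS mice varied among tissues for 11 of the 34 genes by the moderated F, where 25.6% of all genes passed. They were C3 (adjusted p = 1.67e-13), Cfb (3.94e-06), Serping1 (1.98e-05), Cd59a, C1s1, C1qc, C6, Cd93, C1qa, C1rl and Colec11.

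Of 24 further complement genes listed beside these, 19 were measured. For LPS against PBS mice 28 of their 250 tests were higher and 38 lower, where 9.47% and 10.4% of tests over all genes were. For TNF-deficient LPS against LPS mice 9 were higher and 5 lower, where 3.24% and 2.32% were, shares near those of genes at large.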

How the data were processed

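Per the labels' protocols, RNA of 15 tissues from 12 mice was read by 3′ tag sequencing with oligo-dT priming, sample barcodes and 10-base molecular identifiers. Whether identifiers were collapsed is not stated. The deposited values are a signal, gene counts the authors scaled per library. The submitters' processing notes name FastQC, MultiQC, edgeR and build mm10, and no source used here gives the aligner. Signals of a library were whole multiples of 1 step, and 100% of values came out whole within 0.1, which gave back counts of 311128 to 2573806 per library, and signal sums of 703690 to 1603067.

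From these, log2(signal + 1) was fitted per tissue with limma 3.58.1 (R 4.3.3, trended variance), all 3 groups in 1 fit with 9 residual degrees of freedom, keeping genes whose signal reached 1 in 4 or more of the 12 libraries. Calls are Benjamini-Hochberg adjusted p values below 0.05 over all genes of the tissue. The 14 differences among tissues were tested with a moderated F in a joint fit of 45 groups. On the recovered counts, edgeR 4.0.16 (quasi-likelihood, TMM) called 157 and 47 of the complement tests for LPS against PBS and TNF-deficient LPS against LPS, sharing 153 and 40 with limma's 156 and 42, and over all genes 20604 higher and 20341 lower, and 6495 higher and 6875 lower. Scaling by median-of-ratios (DESeq2 1.42.0), another pseudocount, no filter, only the compared groups, leaving out each mouse and a mouse block were tried. The per-tissue limma and edgeR fits were tested on simulated counts for liver and brown adipose tissue only. The joint fit and the other settings were not tested in this way.

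The genes and lists were chosen with earlier results of these data known. Values per mouse are given for up to 3 genes per role called in the most tissues, for the 8 largest called changes per comparison and direction at a mean signal of at least 10, and for genes called in both directions. Others were named after their values were seen. Groups follow the labels. Tag counts carry counting error, which limits low signals. Mice do not pair within a tissue. Across tissues the deviations of libraries from 1 mouse correlated with a median r of 0.0107 over 1260 pairs, against -0.00342 over 3780 pairs of different mice. An r over 0.1 was found in 2.86% of the pairs from 1 mouse and 0.0794% of the pairs of different mice. The joint fit without the mouse block treats libraries of 1 mouse as separate.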

Additional observations from a re-analysis of the deposited data

Results flagged for a closer look

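In 7 groups of 4 mice, fewer than 1 in 20 of those screened, 1 mouse stood apart from the other 3, and chance alone gives about 1 group in 20. In liver of LPS mice, mouse 6 had a C3 signal of 5378 (the others 4612 to 4657) and a C5ar1 signal of 43.8 (25.9 to 26.4), and in spleen the same mouse had a Cd55 signal of 73.3 (31.1 to 37.9). TNF-deficient LPS mouse 9 had a Cfb signal of 95.2 in lung (107 to 109 in the others) and an Mbl2 signal of 656 in liver (497 to 523). PBS mouse 2 had a Cfb signal of 15.3 in bone marrow (8.53 to 9.35), and PBS mouse 1 a Vtn signal of 162 in inguinal lymph node (47.1 to 60.6).

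For 13 genes the LPS change had opposite called directions in different tissues and differed among tissues by limma's moderated F in the joint fit. The F uses the same libraries as the calls, so it is not separate evidence. Among recognition molecules and proteases the adjusted p was 1.1e-07 for C1qa, 0.0042 for C1qb, 6.7e-11 for C1qc, 1.8e-05 for Mbl2, 1.6e-09 for C1ra, 1.1e-05 for C1rl, 6.1e-12 for C1s1 and 3.8e-05 for Masp1. Among regulators it was 0.0018 for C4bp, 9.4e-06 for Cfp, 7.4e-09 for Cd55, 5.6e-19 for Cd59a and 2.2e-06 for Vtn. Some of these directions rested on calls lost when libraries were left out. The only fall of C1qb was lost without mouse 1, 2, 3, 4, 6, 7 or 8, that of C1ra without mouse 8. The only rise of C1qc was lost without mouse 5, that of Cd55 without mouse 2 or 6. The only rises of Mbl2 and C4bp were lost without the brains of mice 6 and 8. Each fall of Vtn was lost without 1 of several mice. For TNF-deficient LPS against LPS mice the same held for 3 genes, with an adjusted p of 3.9e-06 for Cfb, 1.7e-13 for C3 and 0.0017 for Cd59a. The higher calls of Cd59a, in liver and kidney, were each lost without 1 of several mice.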

How the results depend on the processing

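Another pseudocount, no filter, median-of-ratios scaling, fits of the compared groups alone and edgeR on recovered counts gave 99 to 105 higher and 52 to 56 lower calls for LPS against PBS mice, and 32 to 39 higher and 6 to 8 lower for TNF-deficient LPS against LPS mice. With each mouse left out in turn these ranges were 95 to 103, 52 to 59, 27 to 43 and 4 to 7, the 4 without mouse 12. Of 1279 repeats of the named changes, 1224 kept direction and side of the threshold, 49 lost the call, 6 gained one and none reversed. Without the filter, with the compared groups alone, or without a mouse of the group not compared, the limma change itself stays the same. Only its p-value can move, so no reversal was possible in those repeats. Leaving out 1 inguinal lymph node and 2 brain libraries, chosen after seeing the data, gave 97 and 55, and 35 and 6. The cause of these changes was not tested.

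The labels number mice 1 to 12, so no replicate block exists within a tissue. With the mouse as a replicate block in the joint fit, the LPS change differed among tissues for 27 genes and the TNF difference for 12 in place of 11, C4bp having an adjusted p of 0.0452, against 0.0533 without the block. Other settings gave 25 to 28 and 9 to 14. Genes with few counts, such as Mbl2 outside liver or C6, are limited by depth.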

Other observations

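Some of the larger changes among the 19 further complement genes are given here as values, chosen after these were seen. Itgam, the alpha chain of complement receptor 3, rose after LPS in 9 of 15 tissues, by 3.29 in lung, and fell in none. Vsig4, the complement receptor of tissue macrophages, fell in all 3 tissues where it was tested. In liver its mean signal was 0.679 in TNF-deficient LPS mice, 3.31 in LPS mice and 54.3 in PBS mice, a change of -3.75 for LPS against PBS and of -1.53 for TNF-deficient LPS against LPS mice (limma, adjusted p = 0.0381). A single count was worth 1.12 to 2 units of signal in liver, so the difference of -1.53 rests on few reads. Colec10 (-2.26), Colec12 (-1.98) and Cpn2 (-1.76) fell in liver after LPS, and Cr2, the receptor of B cells, fell in spleen (-1.82). Clu, which encodes the fluid phase regulator clusterin, rose by 1.87 in kidney after LPS and was lower there by -1.21 on the log2 scale in TNF-deficient LPS than in LPS mice. Cpn2, a subunit of the carboxypeptidase that inactivates C3a and C5a, was higher in TNF-deficient LPS livers than in LPS livers (1.38).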
